A study of Mus musculus with 5 samples.

Results

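The genes of cholesterol and fatty acid synthesis, with the sterol exporters Abca1 and Abcg1, were followed in RNA of neurospheres, which are balls of cells grown in suspension from neural stem cells. The members were the 30 rows of the deposited table, of 54532 in all, whose gene symbol was on a list of sterol and fatty acid genes, most of them driven by the SREBP transcription factors. They comprised 18 enzymes of sterol synthesis, 3 regulators, 3 transport genes and 6 enzymes of fatty acid synthesis. Neurospheres came from the hippocampus of C57BL/6 mice at postnatal day 0 and were harvested after 7 days with 20 ng/ml each of FGF-2 and EGF. The 3 heterozygous libraries carried hGFAPCre and 1 floxed Arid1b allele (Arid1b flox/+). The 2 control libraries, from littermates, carried hGFAPCre and Arid1b+/+, so the Cre transgene was common to both groups. Arid1b is part of the BAF complex, which remodels chromatin, and the allele is recombined only in cells where Cre, under the human GFAP promoter, was active. Cells of 1 mouse were plated in 2 wells, and whether each library had its own mouse is not stated in the labels, so p-values reflect the spread among these libraries, part of which may be technical.

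Recovered depth was 19833803 to 25494722 reads per library, and Nes and Sox2, which mark neural stem cells, were present in every library at 6454 to 25196 and 5611 to 9615 normalized counts. Nes was lowest in control replicate 1 and above both controls in every heterozygous library (log2 fold change 1.21), as were 23.4% of genes tested. Sox2 was below both controls in every heterozygous library (-0.63), as were 23.3%. Neither passed (limma adjusted p = 0.109 and 0.0549). Arid1b had 1510 and 1730 normalized counts in the controls versus 1102, 1145 and 1003 in the heterozygous libraries, lower in each, with a log2 fold change of -0.58 (SE 0.14) that did not pass (limma adjusted p = 0.0701). Counts per gene cannot tell if the floxed exon was deleted. Control replicate 1 stood apart from the other libraries: across genes, on the log2 scale, it correlated with control replicate 2 at 0.952 and with the heterozygous libraries at 0.927 to 0.930. Control replicate 2 correlated with the heterozygous libraries at 0.971 to 0.974, and those with each other at 0.988 to 0.989. These correlations run across genes, which are no independent replicates. Results that turned on a control are given against each control as well as against both.

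Cholesterol is built from acetyl-CoA through mevalonate, farnesyl diphosphate, squalene and lanosterol, and fatty acids from acetyl-CoA through malonyl-CoA. SREBP factors are held in the endoplasmic reticulum when sterol is plentiful and, when it is scarce, are cleaved and switch on most genes of both pathways. LXR receptors sense oxysterols and raise exporters such as Abca1 and Abcg1. Neural cells make nearly all of their own cholesterol, since that of the blood does not enter the brain, and oligodendrocytes need large amounts of sterol and fatty acid for myelin.

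No member passed the test over all genes. The comparison of heterozygous with control libraries by limma on log2(normalized count + 1) called 0 of the 30 members, all of which were tested, and 2.84% of the 16411 genes tested (1.9% higher and 0.944% lower). At an unadjusted p under 0.05 there were 3 higher members (Hsd17b7, Msmo1 and Sc5d) and 2 lower members (Scd1 and Scd2), next to 26.1% of all genes (13.8% higher and 12.4% lower). edgeR on the recovered reads called 0 members and 2.49% of genes (1.46% higher and 1.03% lower). DESeq2 on those reads called Hsd17b7 as higher and Scd1 and Scd2 as lower, where it called 14.4% of genes (7.3% higher and 7.15% lower). The same 3 genes were called in the authors' deposited table, in which 12.3% of genes with an adjusted p were called (6.32% higher and 5.99% lower). The groups did not overlap for 8 members and for 46.7% of tested genes. The heterozygous libraries lay above both controls for 6 of these members (23.4% of genes) and below both for 2 (23.3% of genes). In these counts the members' shares were near or below those of all genes.

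The sterol enzymes differed more between the controls than between the groups: the median log2 difference of control replicate 2 from control replicate 1 was 0.89, and that of heterozygous from control libraries was 0.41. Control replicate 1 was the lowest of the 5 libraries for 16 of the 18 enzymes, the exceptions being Pmvk and Tm7sf2, and over all genes tested it was the lowest for 38.1% and the highest for 35.3%. Control replicate 2 lay above the range of the heterozygous libraries for 8 of the 18, within it for 4 and below it for 6, and the corresponding shares of all genes were 38.4%, 26.4% and 35.2%. Summed over the 18 enzymes, normalized counts were 24502 and 46141 in the controls versus 50127, 41537 and 44156 in the heterozygous libraries. The sum of control replicate 2 thus lay inside the heterozygous range, and that of control replicate 1 far below it. Over all genes tested the median log2 fold change was 0.01, with 50.5% of values above 0, and of the 18 enzymes 15 were above 0 and 3 below. The median of the 18 turned to -0.12 when control replicate 1 was left out, and was 0.98 when control replicate 2 was. With a single control left, the test assumes that the lone library varies like the others. Without control replicate 2, limma called 13 of the 18 as higher, where 27.2% of genes were called higher and 23.5% lower. Without control replicate 1 it called 1, Hsd17b7, where 9.3% of genes were called higher and 7.68% lower. Of the 18 enzymes, 10 had fold changes of opposite sign against control replicate 1 alone and control replicate 2 alone, as did 34.0% of all genes tested in both fits. The other 8 (Mvk, Idi1, Fdft1, Sqle, Cyp51, Msmo1, Hsd17b7 and Sc5d) were higher in value against each control.

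**Figure D1:**
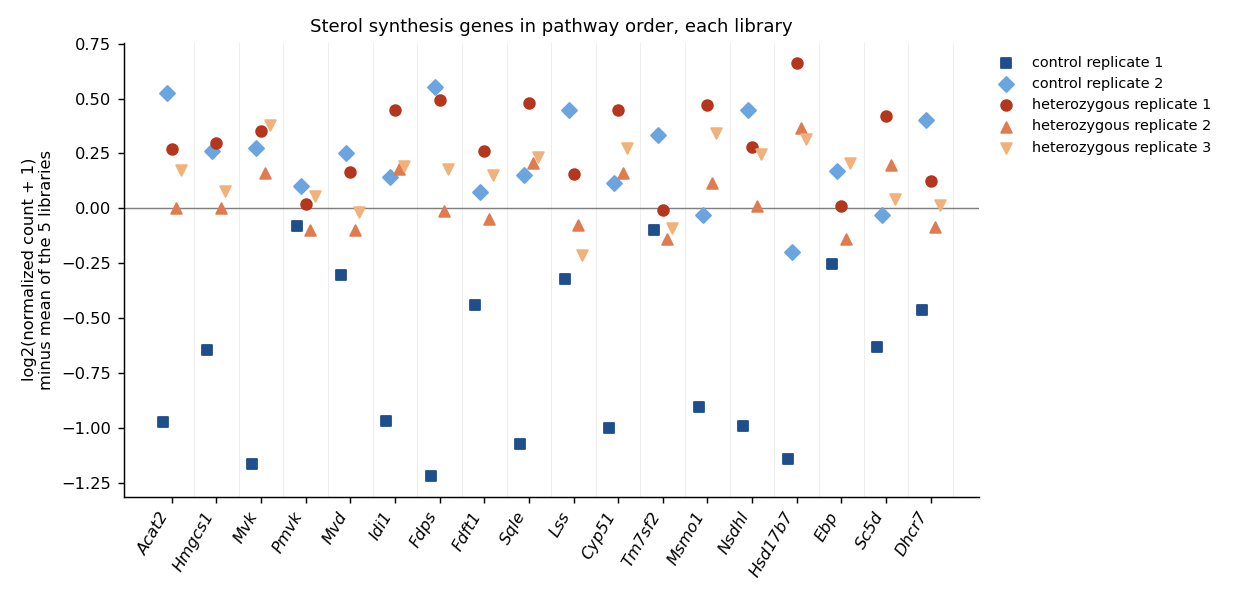
Level of each of the 18 sterol synthesis genes in each library, as log2(normalized count + 1) minus the mean of the 5 libraries, in pathway order from left to right. Control replicate 1 is the lowest point for 16 of the 18 genes, and control replicate 2 lies above, within or below the heterozygous points depending on the gene.

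The mevalonate steps showed a wider gap between the controls, with a median log2 difference of 1.11, than the later sterol steps, at 0.86. Acat2, the cytosolic thiolase that joins acetyl-CoA units, had 987 and 2780 normalized counts in the controls versus 2335, 1936 and 2180 in the heterozygous libraries. Hmgcs1, which makes HMG-CoA and was the most abundant sterol enzyme per length, stood at 5756 and 10798 in the controls versus 11062, 9028 and 9522. For both genes the heterozygous values lay near or below control replicate 2 and well above control replicate 1. Mvk, mevalonate kinase, was at 509 and 1380 against 1455, 1276 and 1483, and its log2 fold change of 0.74 had a 95% interval from -0.20 to 1.68. That fold change was 1.46 against control replicate 1 alone (limma adjusted p = 0.000113) and 0.02 against control replicate 2 alone (adjusted p = 0.920). Idi1, which isomerizes isopentenyl diphosphate, had 525 and 1133 in the controls versus 1398, 1161 and 1173 in the heterozygous libraries. It was the 1 mevalonate gene whose groups did not overlap (log2 fold change 0.68, SE 0.32, limma adjusted p = 0.226), and heterozygous replicate 2 exceeded control replicate 2 by little.

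Pmvk and Mvd, which act between Mvk and Idi1, varied least of the mevalonate genes. Pmvk, phosphomevalonate kinase, ranged only from 884 to 1015 over the 5 libraries, with a log2 fold change of -0.02 and a 95% interval from -0.35 to 0.31. Mvd, the decarboxylase that yields isopentenyl diphosphate, had 1076 and 1578 in the controls versus 1487, 1239 and 1311 in the heterozygous libraries, with an interval from -0.43 to 0.51. Fdps, farnesyl diphosphate synthase, was at 33.7 and 117 in the controls versus 113, 79.2 and 90.6. Its counts are uncertain, because 1124 of its 4208 exon bases are shared with Gm43738 on the same strand (mean 0.36 normalized counts), and the labels do not say how reads in both were counted.

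From squalene onward, 5 of the 11 genes had all heterozygous values above both controls, as 23.4% of all genes tested did. Hsd17b7, a ketosteroid reductase of the complex that removes methyl groups from the sterol ring, showed the largest fold change of the 30 members. It lies on chromosome 1 from 169949535 to 169969241 on the - strand (mm10). It had 349 and 671 normalized counts in the controls versus 1217, 991 and 958 in the heterozygous libraries, means of 510 ± 228 (SD, n = 2) and 1055 ± 141 (SD, n = 3). The controls differed 1.92-fold between themselves, and the heterozygous mean was 3.02 times control replicate 1 and 1.57 times control replicate 2. The log2 fold change was 1.11 (SE 0.29, 95% interval 0.42 to 1.81) and did not pass (limma adjusted p = 0.0832). Against control replicate 2 alone it was 0.64 and against control replicate 1 alone 1.58, past the threshold in each of these fits (limma adjusted p = 0.0261 and 0.000188), in which 17.0% and 50.6% of all genes were called. The authors' deposited table had it at 0.94 on the log2 scale (adjusted p 0.00928).

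Msmo1, the oxidase of the same demethylation, had 1509 and 2765 in the controls versus 3909, 3058 and 3576 in the heterozygous libraries (log2 fold change 0.78, SE 0.26, limma adjusted p = 0.138). Nsdhl, the dehydrogenase between them, stood at 621 and 1685 in the controls versus 1500, 1246 and 1467. These 3 enzymes of 1 complex did not share an order of libraries: control replicate 2 was below every heterozygous library for Hsd17b7 and Msmo1 and above every one for Nsdhl. Against control replicate 2 alone, the log2 fold changes were 0.64 for Hsd17b7, 0.34 for Msmo1 and -0.27 for Nsdhl. Nsdhl and Ebp lie on the X chromosome, and heterozygous replicate 2 differed from the other libraries in Xist, the RNA of the inactive X, at 32809 normalized counts against 1.06 to 293. For both genes it was the lowest heterozygous library, as it was for most sterol enzymes outside the X chromosome, and the part of sex in their values was not tested.

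Sqle, squalene epoxidase, had 2039 and 4748 in the controls versus 5963, 4933 and 5038 in the heterozygous libraries. Cyp51, the lanosterol demethylase, ran close to it, at 2332 and 5046 in the controls versus 6348, 5201 and 5643 in the heterozygous libraries. In both genes control replicate 2 lay just under the lowest heterozygous library. Their log2 fold changes were 0.77 (SE 0.34, limma adjusted p = 0.211) and 0.74 (SE 0.31, adjusted p = 0.200), and without control replicate 1 they shrank to 0.16 and 0.18. Sc5d, a sterol desaturase, had 1535 and 2331 in the controls versus 3186, 2726 and 2448 in the heterozygous libraries (log2 fold change 0.55, SE 0.21, adjusted p = 0.171). Fdft1, squalene synthase, stood at 1967 and 2812 in the controls versus 3205, 2578 and 2971, so its groups overlapped. Of these genes, Fdft1 shares 774 exon bases with Ctsb and Cyp51 shares 166 with Akap9, each on the opposite strand, and the labels do not say whether strand was used in counting.

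Of the remaining sterol enzymes, Lss, Dhcr7 and Tm7sf2 were lower in every heterozygous library than in control replicate 2. Lss, which closes squalene epoxide into lanosterol, had 1560 and 2660 in the controls versus 2175, 1852 and 1684 in the heterozygous libraries. Dhcr7, the last reductase of the pathway, had 1778 and 3237 against 2672, 2312 and 2474, with a log2 fold change of 0.05 and a 95% interval from -0.56 to 0.66. Tm7sf2, a sterol reductase, had 717 and 966 against 764, 696 and 722. The values of Lss and Dhcr7 lay between those of the controls, and Tm7sf2 straddled control replicate 1. Ebp, a sterol isomerase, ranged from 313 to 431 over the 5 libraries with overlapping groups. Tm7sf2 shares 532 exon bases with Vps51 on the same strand, so its counts are uncertain.

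**Figure D2:**
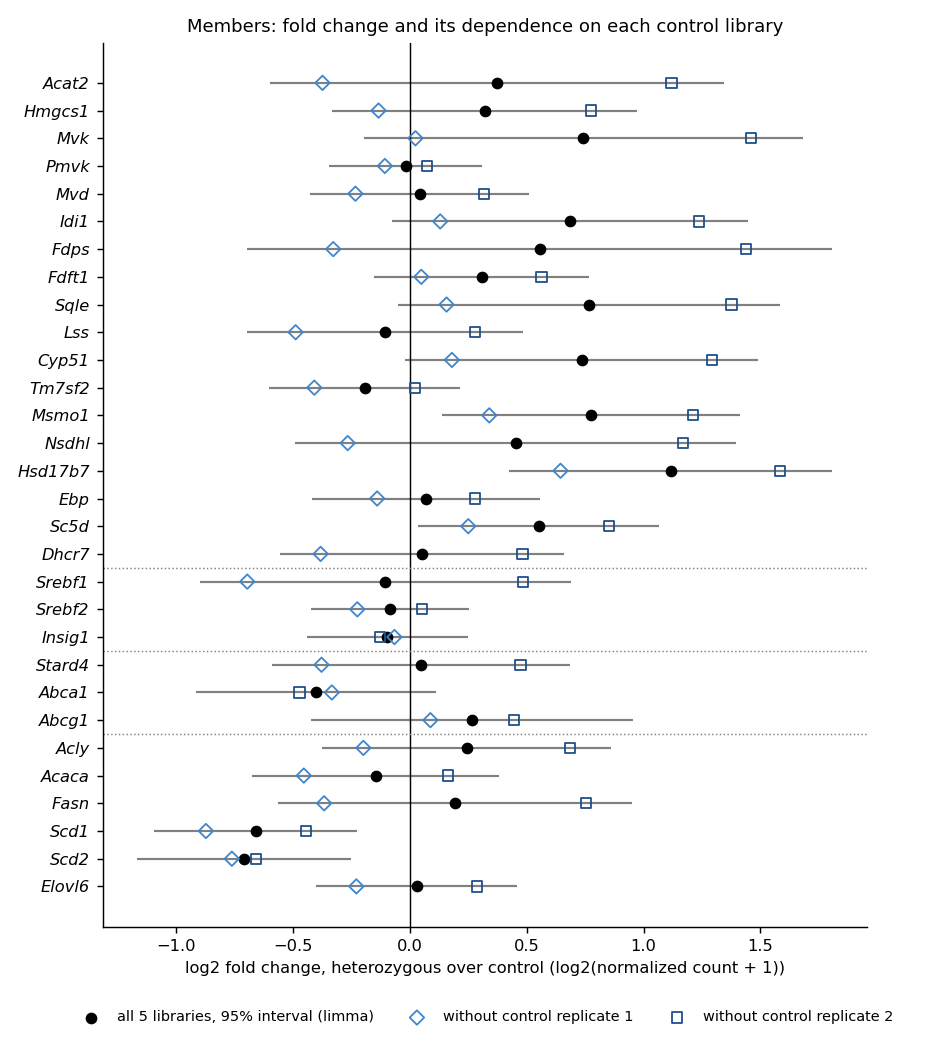
Log2 fold change of each of the 30 members, heterozygous over control, with its 95% interval from limma (black), and the same value with control replicate 1 (diamond) or control replicate 2 (square) left out; dotted lines separate sterol enzymes, regulators, transport genes and fatty acid enzymes. The diamond and the square lie on opposite sides of 0 for 17 of the 30 members. Scd1, Scd2, Abca1 and Insig1 stay below 0, and Hsd17b7, Msmo1, Sc5d, Sqle, Cyp51, Idi1, Fdft1, Mvk and Abcg1 above it.

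The sequences upstream of 4 sterol enzymes are shown because the genes differ in how far the heterozygous libraries exceeded control replicate 2 (Hmgcs1 and Mvk little or not, Hsd17b7 and Msmo1 more), while carrying the same CCAAT letters. They are the 250 bases before the RefSeq start (build GRCm38.p6), 5′ to 3′ on the gene's strand. They cover chr13:119690101-119690350, + strand for Hmgcs1, chr5:114444019-114444268, + strand for Mvk, chr1:169969206-169969455, - strand for Hsd17b7 and chr8:64733579-64733828, - strand for Msmo1. Capitals mark CCAAT, the letters bound by NF-Y, a common partner of SREBP, on either strand (ATTGG when on the other), and the sterol regulatory element pattern TCACNCCAC, found here only in Hmgcs1.
Hmgcs1: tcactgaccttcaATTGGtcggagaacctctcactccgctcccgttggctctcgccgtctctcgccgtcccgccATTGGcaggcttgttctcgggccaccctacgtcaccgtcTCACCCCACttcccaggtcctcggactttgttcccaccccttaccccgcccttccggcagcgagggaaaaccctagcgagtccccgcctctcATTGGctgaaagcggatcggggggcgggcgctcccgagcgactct
Mvk: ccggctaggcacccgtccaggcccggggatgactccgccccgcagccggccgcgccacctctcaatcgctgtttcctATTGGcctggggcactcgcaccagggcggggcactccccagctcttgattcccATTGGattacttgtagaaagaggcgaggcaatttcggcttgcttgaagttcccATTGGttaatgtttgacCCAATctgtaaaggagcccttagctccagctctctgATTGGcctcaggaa
Hsd17b7: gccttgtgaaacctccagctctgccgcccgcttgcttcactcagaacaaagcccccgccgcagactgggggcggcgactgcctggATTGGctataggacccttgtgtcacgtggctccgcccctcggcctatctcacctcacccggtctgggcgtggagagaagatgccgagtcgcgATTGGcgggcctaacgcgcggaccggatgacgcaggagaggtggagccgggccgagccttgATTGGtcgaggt
Msmo1: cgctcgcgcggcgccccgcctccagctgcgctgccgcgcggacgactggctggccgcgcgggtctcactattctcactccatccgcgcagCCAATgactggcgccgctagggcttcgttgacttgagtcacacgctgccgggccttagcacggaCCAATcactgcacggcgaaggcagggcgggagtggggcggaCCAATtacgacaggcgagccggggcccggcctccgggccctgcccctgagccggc
The Hmgcs1 stretch held 3 copies of CCAAT, Mvk 5, Hsd17b7 3 and Msmo1 3, and none overlapped the sterol element. Of the 30 members 23 had a RefSeq window. The set of windows used held none for Fdps, Fdft1, Sqle, Stard4, Abcg1, Scd1 and Scd2. CCAAT stood in 14 of the 18 windows of sterol enzymes and in 33.8% of all 32851 RefSeq windows, each searched over the same 250 bases, and at least 2 copies in 9 of the 18 and in 10.1% of all. Among the 10 windows of the other members, 5 held it. TCACNCCAC stood in 1 of 18 windows of sterol enzymes and in 1.05% of all. Only exact matches to this pattern within the 250 bases were counted. Sterol elements with other letters or at other positions were not searched for. CCAAT stood in 14 of the 15 sterol enzymes with a window, and Acat2 was the only 1 without a copy. The part of CCAAT or NF-Y in the differences between these enzymes was not tested.

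None of the 3 regulators passed, and all had overlapping groups. Srebf1, which encodes the SREBP form tied mainly to fatty acid synthesis, had 4606 and 10441 normalized counts in the controls versus 5776, 6894 and 6714 in the heterozygous libraries. Its controls differed 2.27-fold and enclosed every heterozygous value. Its log2 fold change was -0.11 with both controls (95% interval -0.90 to 0.69), -0.70 against control replicate 2 alone (limma adjusted p = 0.0115) and 0.48 against control replicate 1 alone (adjusted p = 0.0141). The call thus changed sides with the control used. Srebf2, the form tied mainly to sterol synthesis, stood at 7061 and 8553 in the controls versus 7763, 7132 and 7066, a spread of 1.21-fold between controls and a log2 fold change of -0.09 (95% interval -0.43 to 0.25). Insig1, an SREBP target that holds the SREBP escort in the endoplasmic reticulum, had 5368 and 5141 in the controls versus 5364, 4291 and 5136 in the heterozygous libraries. Unlike most sterol enzymes, Insig1 was about as high in control replicate 1 as elsewhere, and its control ratio was 0.96. Srebf1 shares 109 exon bases with Rai1 on the opposite strand.

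Among the transport genes, Stard4 had control replicate 1 as the lowest library, as most sterol enzymes did, and Abca1 and Abcg1 did not. Stard4, which carries cholesterol between membranes and is an SREBP target, had 1315 and 2375 in the controls versus 2089, 1588 and 1835 in the heterozygous libraries. Abca1, the exporter of cholesterol to lipoprotein particles, stood at 12553 and 11408 in the controls versus 7669, 11834 and 8155 in the heterozygous libraries. Heterozygous replicate 2 lay between the controls, while the other heterozygous libraries were lower (log2 fold change -0.40, SE 0.21, limma adjusted p = 0.275). Abcg1, an exporter of the same LXR-driven group, was far less abundant, at 214 and 274 against 208, 366 and 326. The heterozygous libraries differed 1.76-fold among themselves in Abcg1 and 1.54-fold in Abca1, the widest spreads between heterozygous libraries over the 30 members.

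**Figure D3:**
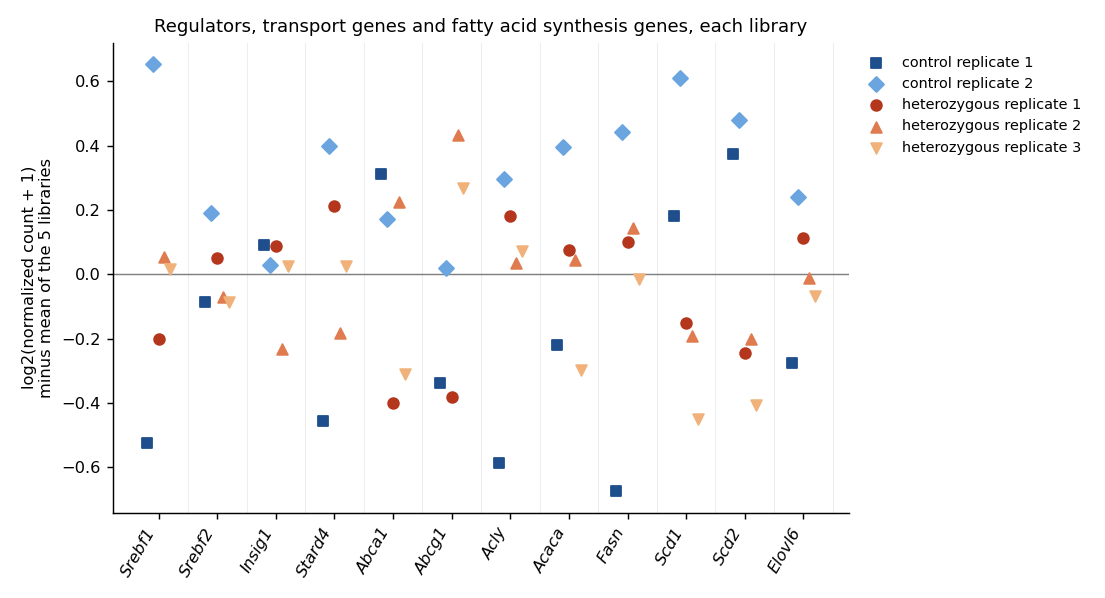
Level of the 3 regulators, 3 transport genes and 6 fatty acid enzymes in each library, as log2(normalized count + 1) minus the mean of the 5 libraries. Control replicate 1 is lowest for Srebf1, Srebf2, Stard4, Acly, Fasn and Elovl6, and both controls lie above all heterozygous libraries only for Scd1 and Scd2.

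In the fatty acid arm the desaturases stood apart from the enzymes before them. Scd2 and Scd1 insert the first double bond into saturated fatty acids, Scd2 being the main form in brain, and they lie close together on mouse chromosome 19, Scd2 from 44293674 to 44306864 (+ strand) and Scd1 from 44394455 to 44407879 (- strand, mm10). Scd2 had 112594 and 121078 normalized counts in the controls versus 73253, 75581 and 65550 in the heterozygous libraries, means of 116836 ± 5999 (SD, n = 2) and 71461 ± 5250 (SD, n = 3). Every heterozygous library was below both controls, which differed only 1.07-fold, and the mean was lower by 38.8%. Scd1 had 10729 and 14426 in the controls versus 8511, 8269 and 6921 in the heterozygous libraries, again without overlap. The log2 fold changes were -0.71 for Scd2 (SE 0.19, 95% interval -1.17 to -0.25, limma adjusted p = 0.0882) and -0.66 for Scd1 (SE 0.18, 95% interval -1.10 to -0.23, adjusted p = 0.0914), so neither passed.

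Against each control alone the desaturases kept their direction. Without control replicate 1 the log2 fold changes were -0.76 for Scd2 and -0.87 for Scd1 (limma adjusted p = 0.0232 and 0.00734), and without control replicate 2 they were -0.66 and -0.45 (adjusted p = 0.0154 and 0.0278). Those fits called 17.0% and 50.6% of all genes. The authors' deposited table had Scd2 at -0.69 (adjusted p 0.000775) and Scd1 at -0.64 (adjusted p 0.0210) on the log2 scale. Scd2 made up 0.488% and 0.526% of all normalized counts in the controls versus 0.326%, 0.337% and 0.287% in the heterozygous libraries, and it was 8.39 to 10.49 times as high as Scd1 in every library. The Scd paralogues are similar in sequence, so reads could be assigned to either. Scd3 ranged from 2.92 to 24.4 and Scd4 from 4.45 to 13.6 normalized counts.

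Acly, Fasn and Elovl6 instead had control replicate 1 as the lowest library and control replicate 2 as the highest. Acly, which makes cytosolic acetyl-CoA from citrate, had 4741 and 8760 in the controls versus 8088, 7308 and 7496 in the heterozygous libraries. Fasn, the fatty acid synthase, stood at 8901 and 19338 in the controls versus 15229, 15707 and 14078 in the heterozygous libraries. Its controls differed 2.17-fold and the heterozygous libraries 1.12-fold, and its log2 fold change went from -0.37 without control replicate 1 to 0.75 without control replicate 2. Elovl6, which lengthens the product of Fasn, had 2841 and 4061 in the controls versus 3715, 3411 and 3280, all heterozygous values between the controls. Acaca, acetyl-CoA carboxylase, had 2665 and 4086 in the controls versus 3273, 3202 and 2525 in the heterozygous libraries, where replicate 3 was the lowest of the 5. Control replicate 2 exceeded every heterozygous library in all 6 fatty acid genes, as it did in 38.4% of all genes. The median log2 fold change of the 6 genes was -0.06. Leaving out control replicate 1 gave -0.41, and leaving out control replicate 2 gave 0.22.

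**Figure D4:**
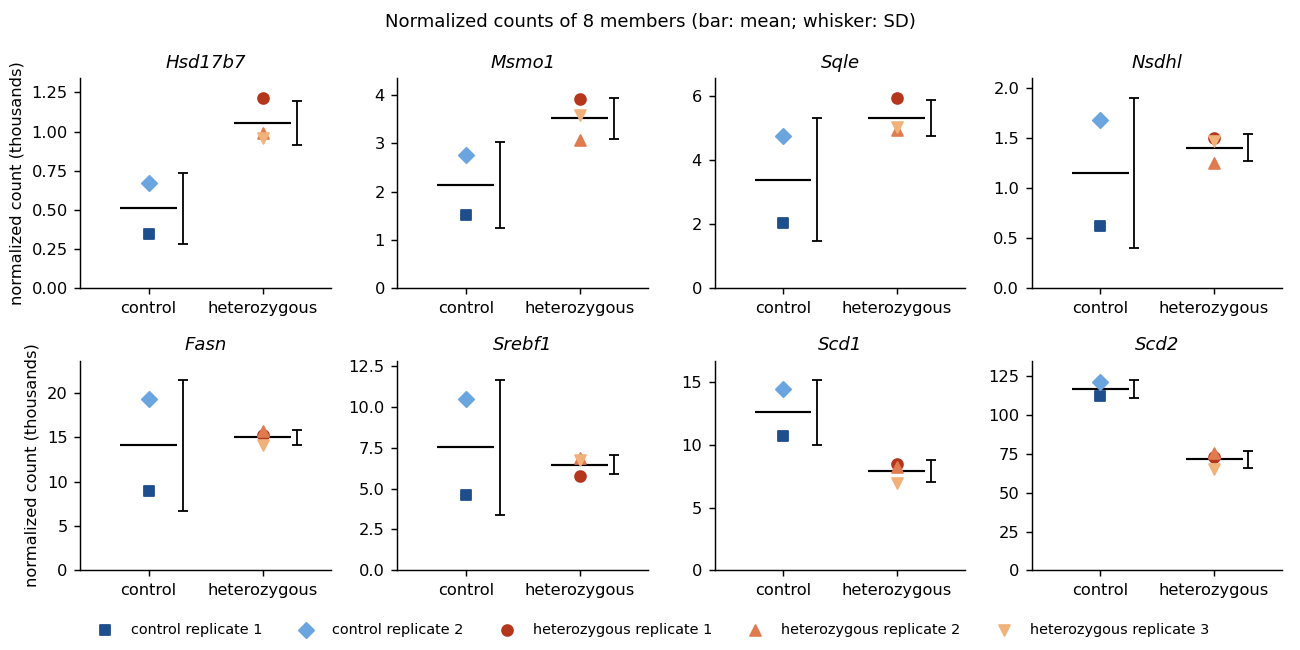
Normalized counts of 8 members, on axes scaled as labelled, by control and heterozygous library, with group means (horizontal bars) and SD (whiskers; n = 2 and n = 3). The groups overlap for Nsdhl, Fasn and Srebf1 and do not overlap for Hsd17b7, Msmo1, Sqle, Scd1 and Scd2, and the controls lie close together only for Scd2.

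Per length, as mean normalized count per kilobase of annotated exon over the 5 libraries, Scd2 was by far the highest member at 16400, rank 27 of the 16411 genes tested. Hmgcs1 followed at 2010 and Scd1 at 1997, then Insig1 at 1636, Acly at 1379, Fasn at 1338, Srebf1 at 1222 and Cyp51 at 1113. Srebf2 stood at 1046 per kilobase, close to Srebf1. The lowest levels were those of Fdps at 20.6, whose reads are uncertain as stated above, and of Abcg1 at 38.1, next to 996 for Abca1. Among the enzymes that act on squalene and lanosterol, Sqle was at 819 and Lss at 184. The exon lengths join all annotated transcripts of a gene, so these levels are too low where much of that length is not used.

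Genes around these pathways were read from lists of 10 to 36 genes each, and 26.1% of all genes tested had an unadjusted p under 0.05 (13.8% higher and 12.4% lower). Of 12 genes that process or degrade SREBP none passed with limma, edgeR or DESeq2, with 1 higher at an unadjusted p under 0.05. Fbxw7, a ubiquitin ligase subunit for SREBP, had a log2 fold change of 0.29, and Mbtps1, the protease that makes the first cut in SREBP, one of -0.23. Of 10 LXR receptors, partners and targets none passed with any of these tools, with 3 lower at an unadjusted p under 0.05. Those were Nr1h2, an LXR receptor (-0.45, SE 0.15, limma adjusted p = 0.128), its partner Rxrb (-0.56, adjusted p = 0.135) and the lipid transporter Abca2 (-0.37, adjusted p = 0.171). Their heterozygous values lay below both controls, as did those of 23.3% of all genes tested. Over the 10 genes, 5 log2 fold changes were above 0 and 5 below, with a median of 0.01 and a maximum of 0.88. Every heterozygous library was above both controls for 2 of the 10 (23.4% of all genes) and below both for 4. Of 13 tested genes of the branch to isoprenoids none passed with these tools either, with 3 lower at an unadjusted p under 0.05, among them Fntb, a protein farnesyltransferase subunit (-0.53), and Dhdds, which makes dolichol precursors (-0.36).

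Sterol uptake and fatty acid modification held the genes that passed. Over all genes tested, limma called 1.9% higher and 0.944% lower. Of 18 tested genes of sterol uptake, storage and turnover, 1 fell and 17 did not pass. At an unadjusted p under 0.05, 0 were higher and 4 lower (13.8% and 12.4% of all genes), and DESeq2 called 0 higher and 3 lower. The 1 that fell was Scarb1, the receptor for high-density lipoprotein, with 2964 and 2449 normalized counts in the controls versus 1296, 1432 and 1358 in the heterozygous libraries (log2 fold change -0.98, SE 0.14, limma adjusted p = 0.0361). Gramd1a, which moves cholesterol from the plasma membrane, stood at -0.70 (adjusted p = 0.0521) and Soat1, which esterifies cholesterol, at -0.79 (adjusted p = 0.0869). Of 33 tested genes that supply, lengthen, desaturate or activate fatty acids, 2 fell and 31 did not pass. At an unadjusted p under 0.05 there were 5 higher and 6 lower, and DESeq2 called 4 higher and 3 lower, where it called 7.3% of all genes higher and 7.15% lower. Only the 3 genes of this list with the smallest p are named, and all were lower. Lpin1, a phosphatidate phosphatase and known SREBP target, had 4478 and 4326 in the controls versus 2333, 2441 and 2233 in the heterozygous libraries (-0.91, SE 0.12, adjusted p = 0.0303). Fads1, a desaturase of polyunsaturated fatty acids, had 13167 and 11249 in the controls versus 6642, 6871 and 6360 (-0.88, SE 0.13, adjusted p = 0.0396). Acss2, which makes acetyl-CoA from acetate, stood at -0.66 (adjusted p = 0.0521). The controls of Scarb1, Lpin1 and Fads1 lay close together, and their log2 fold changes without 1 control or the other were -0.85 and -1.12, -0.89 and -0.94, and -0.77 and -0.99. Without any 1 heterozygous library none of the 3 passed, in fits that leave 2 libraries in each group. Those fits called 0 genes higher and at most 1 lower over the whole table, so this loss is not particular to the 3.

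Apart from the microglia list, the marker and hypoxia lists differed between libraries in other patterns than the sterol enzymes. List medians are of log2 level minus the mean of the 5 libraries. Over 9 tested microglia markers, control replicate 1 was lowest (-1.28). Control replicate 2 (-0.21) lay within the heterozygous range (-0.74 to 1.47), as it did for the sterol enzymes. In list medians, both controls lay on the same side of all heterozygous libraries for the hypoxia, astrocyte, oligodendrocyte, stem cell and neuron lists. Over all genes, limma called 1.9% higher and 0.944% lower, and DESeq2 called 7.3% higher and 7.15% lower. Summed over 22 hypoxia genes, of which 12 fell, normalized counts were 275887 and 183698 in the controls versus 106308 to 121433 in the heterozygous libraries, with control replicate 1 the highest where the sterol enzymes had it lowest. Of 12 astrocyte markers 3 fell, with sums of 165318 to 216424 in controls and 112241 to 133803 in heterozygous libraries. Of 15 oligodendrocyte lineage markers 2 fell with limma and 11 were called lower by DESeq2. For 10 of the 15 every heterozygous library was below both controls, as it was for 23.3% of all genes tested. The median log2 fold change of the 15 was -1.40, although the sums, 67184 to 94192 in controls and 61193 to 77340 in heterozygous libraries, overlapped. Of 15 neuron markers 9 rose, with sums of 24999 to 33549 and 46672 to 62424. Of 12 neural stem cell markers 2 fell and the median log2 fold change was -0.49, although the sums, 99398 to 152028 in controls and 181610 to 214746 in heterozygous libraries, went the other way. DESeq2 called 20 hypoxia genes and 6 astrocyte markers lower, and 12 neuron markers higher. It called 4 stem cell markers higher and 6 lower. Every heterozygous library was below both controls for 21 hypoxia genes and 8 astrocyte markers, and above both for 13 neuron markers. Among stem cell markers 7 were below both and 4 above. The microglia list summed to 495 to 612 and 461 to 901, with Aif1, Cx3cr1, Tmem119, Ptprc and Itgam at a mean under 10, and the vascular and meningeal list to 540 to 1830 and 1547 to 2960, with Kcnj8, Abcc9 and Lum under 10. No listed marker was at 0 in every library. The part of these cell types and of the hypoxia genes in the values of Scd1, Scd2 and the sterol enzymes was not tested, and in whole neurospheres fewer cells of a type and less RNA per cell cannot be told apart.

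**Figure D5:**
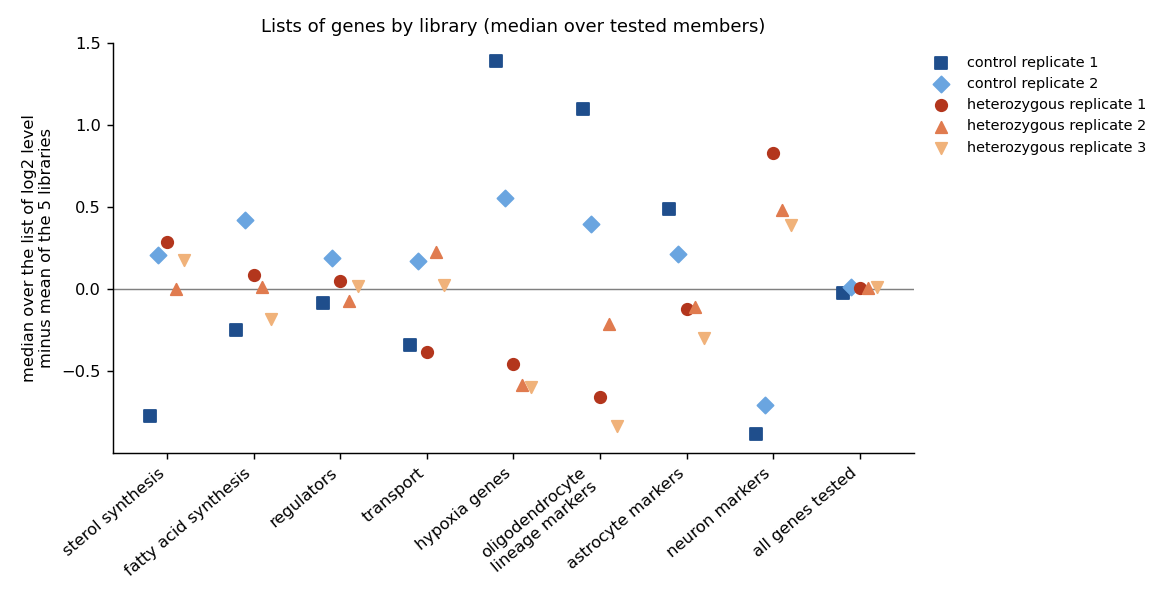
Median over the tested genes of each list of log2(normalized count + 1) minus the mean of the 5 libraries, by library. For the sterol enzymes control replicate 1 is at -0.77 and control replicate 2 at 0.21, among the heterozygous libraries, whereas for the hypoxia genes both controls (1.39 and 0.56) are above all heterozygous libraries.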

How the data were processed

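RNA was sequenced from 3 heterozygous and 2 control neurosphere libraries, grouped by the sample titles. STAR, DESeq2 and the build mm10 are named in the submitters' processing notes. Their versions, the annotation, the counting tool and strandedness are not given in the sources used. The deposited signal per library is a normalized count, reads per gene divided by 1 size factor: with a tolerance of 0.001 read, 100% of values were whole reads. Further deposited columns are the log2 fold change by the authors, its standard error and Wald statistic (a deposited score, not printed here), and the p-value, raw and adjusted, by the authors.

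Values were tested as log2(normalized count + 1) with limma (3.58.1, R 4.3.3) with an intensity trend, two-sided, for 16411 genes whose mean reached 10, with Benjamini-Hochberg adjustment over all of them and a threshold of 0.05. Fold changes on this scale understate those of low genes. The script was tested on simulated data. Coordinates and exon lengths are 1-based mm10 positions from GENCODE M21, in which 54495 of 54532 gene IDs were found. Promoter letters came from RefSeq windows. The members and gene lists were chosen with earlier results of these data known. Named genes were all members, Arid1b, and from each surrounding list the genes past the threshold and up to 3 with the smallest p; some genes that this rule takes are not reported here. Nes, Sox2, Xist, Scd3 and Scd4 were added after their values were seen. The alternatives were edgeR 4.0.16 and DESeq2 1.42.0 on recovered reads, another pseudocount, other filters, quantile normalization, library weights, a replicate block, and each library left out.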

Additional observations from a re-analysis of the deposited data

How the results depend on the processing

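A pseudocount of 10, no filter, a mean of at least 50 and quantile normalization left the counts of called members at 0 and turned no member. Over all genes, 311 were called higher and 155 lower in the reported fit, 1174 and 1151 with DESeq2, 79 and 38 with library weights, and 0 to 4477 and 0 to 3868 with 1 library left out. A replicate block (called higher 0, called lower 1) is no pairing by design: same-numbered libraries deviated together at 0.03 and -0.04, and no paired value changed a member's call. With DESeq2, 1 sterol enzyme was called higher and 2 fatty acid genes lower. With 1 library left out, 0 to 13 sterol enzymes were called higher, and 0 to 2 fatty acid genes in each direction. The largest numbers came without control replicate 2 (13 sterol enzymes), and 1 was called without control replicate 1. The median log2 fold change ran from -0.12 to 0.98 for sterol enzymes and from -0.41 to 0.22 for fatty acid genes. Scarb1, Lpin1 and Fads1 lost their calls with library weights, the replicate block or any heterozygous library left out. The replicate block and the fits without a heterozygous library called 0 genes higher and at most 1 lower over all genes. The cause of these changes was not tested. Only the fits with 1 library left out hold fewer libraries.

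Signs turned as follows. Ebp was -0.022 with the replicate block. Dhcr7 was -0.016 with DESeq2 and -0.020 with edgeR, Stard4 was -0.010 and -0.014, and Elovl6 was -0.002 with edgeR. With 1 library left out, log2 fold changes ran from -0.38 to 1.12 for Acat2, -0.14 to 0.77 for Hmgcs1, -0.11 to 0.072 for Pmvk, -0.23 to 0.32 for Mvd, -0.33 to 1.44 for Fdps, -0.49 to 0.28 for Lss, -0.41 to 0.02 for Tm7sf2, -0.27 to 1.17 for Nsdhl, -0.14 to 0.28 for Ebp, -0.38 to 0.48 for Dhcr7, -0.70 to 0.48 for Srebf1, -0.23 to 0.051 for Srebf2, -0.38 to 0.47 for Stard4, -0.20 to 0.69 for Acly, -0.46 to 0.16 for Acaca, -0.37 to 0.75 for Fasn and -0.23 to 0.29 for Elovl6. Fdps had the lowest counts of all members, at 33.7 to 117 normalized counts, and these are uncertain as stated above. The group of 2 controls limits every comparison.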
